A study of Mus musculus with 20 samples.

Results

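The miR-221 and miR-222 pair was followed across small RNA libraries of cultured mouse midbrain neurons. Its members were the lines named miR-221 or miR-222 in every count file, which gave 4 mature arms (mmu-miR-221-3p, mmu-miR-221-5p, mmu-miR-222-3p and mmu-miR-222-5p, written below without the species prefix) of the 1886 mature miRNA lines listed. The cells were primary midbrain neurons of C57Bl6/J embryos of day 12.5, prepared from the ventral mesencephalon after the meninges had been taken off, and grown without serum. The study had 4 groups of 5 libraries, 20 in all: cultures with 10 ng/ml GDNF on day 5 in vitro (DIV5 GDNF), cultures without it on day 5 (DIV5 control), cultures with 10 ng/ml GDNF on day 1 (DIV1 GDNF), and cultures without it on day 1 (DIV1 control). No group carried a transgene or a deletion. GDNF is glial cell line-derived neurotrophic factor, a survival factor of dopaminergic neurons that signals through the receptor tyrosine kinase Ret. Whether replicates were separate cultures or litters is not given in the labels, and p-values here thus reflect only the spread among these libraries.

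A microRNA is a short RNA cut from a hairpin precursor. 1 strand of the hairpin, the guide arm (3p or 5p), is loaded into an Argonaute protein and pairs through its seed, bases 2 to 8, with target mRNAs that it represses. miR-221 and miR-222 are transcribed together, share a seed and are known to be induced by growth factor signalling in several cell types. They are also known as abundant miRNAs of endothelial and smooth muscle cells, and their described targets include the cell cycle inhibitor p27 and the receptor Kit.

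The mature sequences show why the 3p arms are treated as a pair. They are given 5′ to 3′ from RefSeq on GRCm38.p6, with the seed in capitals.
miR-221-3p: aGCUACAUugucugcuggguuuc
miR-222-3p: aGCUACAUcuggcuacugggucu
miR-1928: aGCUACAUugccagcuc
miR-221-5p: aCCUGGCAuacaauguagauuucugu
A mature sequence was found for 3 of the 4 members, the exception being miR-222-5p. The 3p arms were identical over their first 8 bases and at 11 of their 23 positions, so reads of this length can separate them. Of the 1738 mature mouse miRNAs in the table, 3 had the 3p seed: the pair's own 3p arms and miR-1928. miR-1928 (chromosome 1, 74206562 to 74206578, minus strand) had no read in any of the 20 libraries. Among the 1738 miRNAs with a sequence, the counted reads with this seed were thus those of the pair. Counted lines without a sequence, such as miR-222-5p, could not be checked. Among the same 1738 sequences, the seed of miR-221-5p was held by that arm alone.

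Both hairpins lie on the minus strand of chromosome X. Mir222 spans chrX:19146893-19146971 (79 bases) and Mir221 spans chrX:19146294-19146388 (95 bases). They are shown because the arm ratios below compare products of the same hairpin. Capitals mark the mature arms listed above.
Mir222: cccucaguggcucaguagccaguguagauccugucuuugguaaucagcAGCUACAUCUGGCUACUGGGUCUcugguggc
Mir221: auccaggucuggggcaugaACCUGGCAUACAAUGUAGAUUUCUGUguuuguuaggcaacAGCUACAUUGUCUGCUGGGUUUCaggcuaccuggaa
The hairpins were 504 bases apart and together covered 678 bases, with no other annotated gene overlapping them. The nearest annotated gene was the processed transcript Gm14636 on the same strand, 10009 bases away. The nearest protein-coding genes were 332448 bases away on one side and 684896 on the other, so the pair is intergenic.

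The libraries held 420118 to 4324505 reads assigned to miRNAs, so 1 read was worth between 2.6 and 0.198 CPM (read counts scaled to library size, with the TMM factor of edgeR, the trimmed mean of M-values). DIV5 libraries were mostly deeper, with 1781030 to 3983722 reads with GDNF and 1061619 to 4324505 without, against 420118 to 1761023 reads at DIV1 with GDNF and 686793 to 1557885 without. Reads without an annotated feature made up 9.51% to 22.6% of a file. The DIV5 libraries fell into sets on this measure: replicates 1 and 2 of both treatments had 17.7% to 19.5% of such reads, and replicates 3 to 5 had 9.51% to 13.3% and more depth. The DIV1 libraries had 16.5% to 22.6%, a range that covers DIV5 replicates 1 and 2 but not 3 to 5. Between DIV1 and replicates 3 to 5, day and set thus cannot be told apart. The GDNF changes of the tested arms at DIV5 and the day changes of the miR-221 arms are therefore given within each set as well. Ratios were not tested within the sets. Beside the neuronal label, miR-124-3p, the best known neuronal miRNA, averaged 6044 CPM at DIV5 with GDNF, 6064 CPM at DIV5 without, 2443 CPM at DIV1 with GDNF and 2359 CPM at DIV1 without. Its opposite arm, miR-124-5p, went the other way, with 108.1, 117.2, 274.6 and 274.9 CPM in the same order. A list of 18 neuronal arms, most of whose sum was miR-9-5p, summed to 66867 to 111144 CPM at DIV5 with GDNF, 76342 to 107089 CPM at DIV5 without, 67115 to 91895 CPM at DIV1 with GDNF and 56952 to 95059 CPM at DIV1 without. A list of 22 arms known from dividing progenitors lay below it at DIV5, with 35131 to 42708 CPM with GDNF and 28942 to 42447 CPM without, and above it at DIV1, with 112135 to 139987 CPM with GDNF and 109062 to 152792 CPM without.

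The pair was present in every library at a moderate level, and its 3p arms made up nearly all of it. Averaged over the 20 libraries, miR-222-3p ranked 214th of 1886 lines at 129.9 CPM and miR-221-3p ranked 255th at 71.7 CPM. The 5p arms were scarcer: miR-221-5p ranked 424th at 12.1 CPM and miR-222-5p ranked 571st at 3.47 CPM. These levels rest on 5487 reads of miR-222-3p, 3291 of miR-221-3p, 558 of miR-221-5p and 136 of miR-222-5p in all. The 4 arms together made up 0.0250% of miRNA reads at DIV5 with GDNF, 0.0244% at DIV5 without, 0.0189% at DIV1 with GDNF and 0.0193% at DIV1 without.

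**Figure D1:**
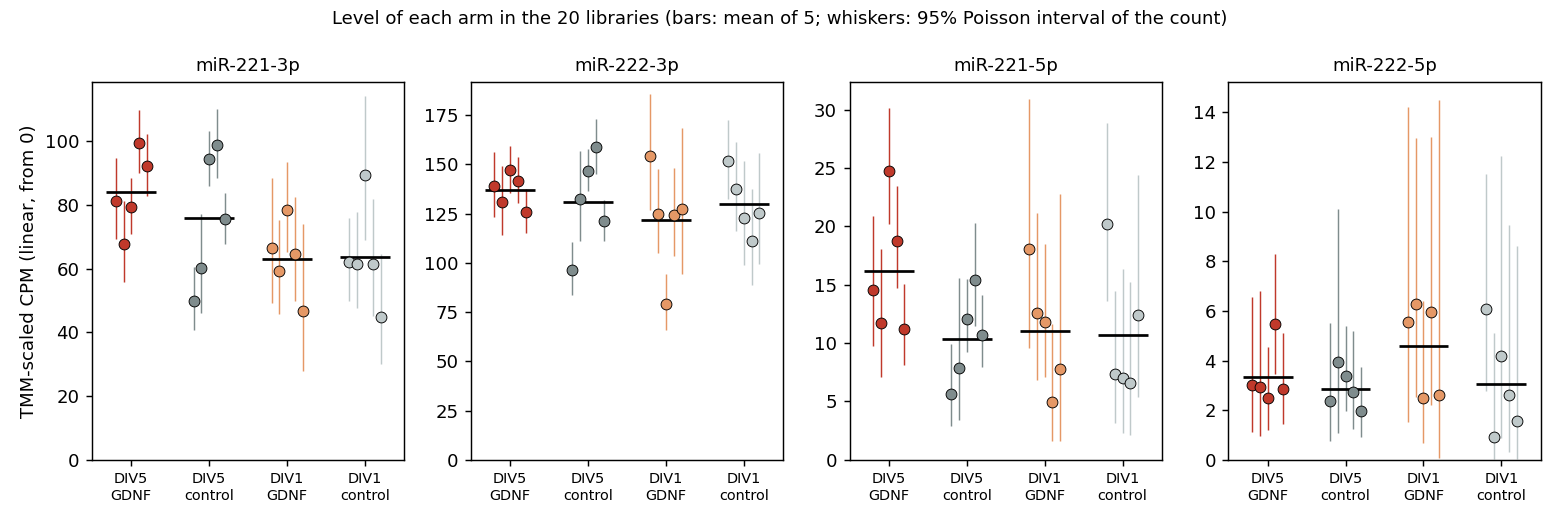
Each panel plots 1 arm, with TMM-scaled CPM from 0 on the vertical axis and the 4 groups of 5 libraries on the horizontal axis. Points are libraries in order of replicate number, whiskers are 95% Poisson intervals of the count and bars are group means, and the point clouds of all 4 groups overlap in every panel.

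miR-222-3p, the more abundant guide arm, had nearly the same mean level in the 4 groups. In replicates 1 to 5 it had 138.9, 130.8, 147.2, 141.7 and 125.9 CPM at DIV5 with GDNF, against 96.6, 132.3, 146.8, 158.7 and 121.2 CPM at DIV5 without. At DIV1 it had 154.2, 124.9, 79.1, 124.4 and 127.4 CPM with GDNF, against 151.6, 137.4, 123.0, 111.2 and 125.5 CPM without. Every group overlapped every other, and the lowest library was replicate 3 of DIV1 GDNF. Group means were 136.9 ± 8.54 CPM at DIV5 with GDNF, 131.1 ± 23.9 CPM at DIV5 without, 122 ± 27.0 CPM at DIV1 with GDNF and 129.7 ± 15.4 CPM at DIV1 without (SD, n = 5 each). In this order of the group means no neighbours differed by more than their SDs.

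miR-221-3p, the guide arm with the same seed, had its higher means at DIV5. It had 81.2, 67.7, 79.3, 99.6 and 92.4 CPM at DIV5 with GDNF, against 50.0, 60.2, 94.3, 99.0 and 75.5 CPM at DIV5 without. At DIV1 it had 66.7, 59.3, 78.5, 64.7 and 46.8 CPM with GDNF, against 62.0, 61.4, 89.5, 61.5 and 44.9 CPM without. The groups overlapped again. Among the DIV5 controls, replicates 1 and 2 were the lowest, and replicates 3 and 4 lay above every DIV1 library. Group means were 84.0 ± 12.3 CPM at DIV5 with GDNF, 75.8 ± 21.2 CPM at DIV5 without, 63.2 ± 11.5 CPM at DIV1 with GDNF and 63.9 ± 16.0 CPM at DIV1 without (SD, n = 5 each). Sorted by mean, neighbouring groups lay within their SDs. The DIV5 GDNF mean lay above each DIV1 mean by more than the SD of either group compared.

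miR-221-5p, the opposite strand of the miR-221 hairpin, was read 3 to 100 times per library. It had 14.5, 11.7, 24.8, 18.7 and 11.2 CPM at DIV5 with GDNF, against 5.66, 7.90, 12.1, 15.4 and 10.7 CPM at DIV5 without. At DIV1 it had 18.1, 12.6, 11.8, 4.98 and 7.80 CPM with GDNF, against 20.2, 7.33, 6.99, 6.54 and 12.4 CPM without. The DIV5 GDNF group had the highest mean, 16.2 ± 5.66 CPM, against 10.4 ± 3.78 CPM in DIV5 control (SD, n = 5 each), and its range overlapped those of the other groups. At DIV1 the GDNF mean was 11.05 ± 4.99 CPM and the control mean 10.7 ± 5.83 CPM (SD, n = 5 each).

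miR-222-5p, the opposite strand of the miR-222 hairpin, was near the limit of detection with 1 to 22 reads per library. Its level was 3.01, 2.92, 2.48, 5.49 and 2.86 CPM at DIV5 with GDNF, against 2.36, 3.95, 3.36, 2.73 and 1.97 CPM at DIV5 without. At DIV1 it was 5.56, 6.29, 2.49, 5.97 and 2.60 CPM with GDNF, against 6.06, 0.916, 4.19, 2.62 and 1.55 CPM without. All groups overlapped. The arm failed the filter on low counts and is not among the 542 miRNAs tested, so 3 of the 4 members were.

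The 3p arms were steadier within groups than the 5p arms. Within groups, the SD of the log2 level was 0.24 for miR-222-3p and 0.32 for miR-221-3p, against 0.12 and 0.17 from counting alone. For miR-221-5p it was 0.59 against 0.43 from counting, and for miR-222-5p it was 0.59 against 0.80. The levels had 0.5 CPM added before the logarithm and the counting values did not, and the latter grow large at low counts. No spread beyond counting can thus be read for miR-222-5p. In edgeR's fit across all miRNAs, the biological coefficient of variation was 19.8% for miR-222-3p and 23.0% for miR-221-3p, below the 31.0% and 32.7% typical of miRNAs at those levels. That of miR-221-5p was 33.4%, against a typical 32.1%.

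The ratio of miR-222-3p to miR-221-3p reads describes the balance of the pair without any scaling between libraries. miR-222-3p had more reads in 20 of 20 libraries, with a ratio of 1.01 to 2.79. The ratio was 1.71, 1.93, 1.86, 1.42 and 1.36 at DIV5 with GDNF, against 1.93, 2.20, 1.56, 1.60 and 1.60 at DIV5 without. At DIV1 it was 2.31, 2.11, 1.01, 1.92 and 2.72 with GDNF, against 2.45, 2.24, 1.38, 1.81 and 2.79 without. Replicate 3 had the lowest ratio of both DIV1 groups, and the groups overlapped throughout. These are ratios of reads, not of molecules.

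Neither day nor GDNF moved the balance of the pair beyond the spread between libraries. Geometric means of the ratio were 1.64 at DIV5 with GDNF, 1.76 at DIV5 without, 1.90 at DIV1 with GDNF and 2.06 at DIV1 without. On the log2 scale, GDNF minus control was −0.10 (SE 0.14, n = 5 each) at DIV5 and −0.11 (SE 0.30, n = 5 each) at DIV1, with two-sided exact permutation p = 0.492 and 0.706. DIV5 minus DIV1 was −0.21 (SE 0.26) with GDNF and −0.23 (SE 0.20) without, with exact p = 0.452 and 0.294. The day difference with GDNF depended on a single library: without replicate 3 of DIV1 GDNF the difference was −0.44 with an exact unadjusted p = 0.0317. Adjusted over the 12 ratio tests (3 ratios in 4 contrasts), p was 0.844 to 0.889 for these 4. The smallest p that 5 against 5 libraries allow is 0.00794.

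**Figure D2:**
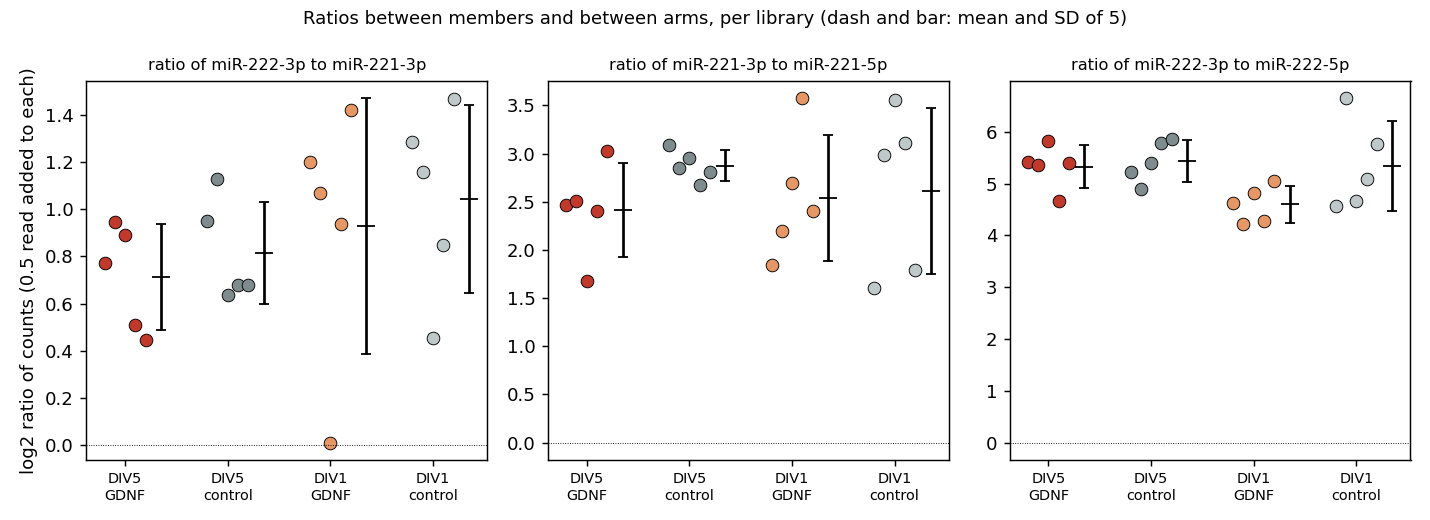
The panels plot the log2 ratio of read counts per library, with 0.5 read added to each count, for miR-222-3p over miR-221-3p, miR-221-3p over miR-221-5p and miR-222-3p over miR-222-5p. Points are libraries, dashes with bars are the mean and SD of 5 libraries and the dotted line is a ratio of 1, above which lie all 20 libraries in each panel.

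The 3p strand dominated both hairpins. Over all libraries 85.5% of miR-221 reads came from the 3p arm, and the ratio of 3p to 5p per library was 3.07 to 13.0. For miR-222 the 3p arm gave 97.6% of reads, with a ratio of 19.9 to 150.0. The highest miR-222 ratio, in replicate 2 of DIV1 control, rests on 1 read of the 5p arm, and its 95% interval from an exact (Clopper-Pearson) share runs from 26.5 to 5964. Such intervals cover counting error only, since these reads carry no molecular identifiers.

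The miR-221 arm ratio had its lowest group mean with GDNF at DIV5. It was 5.59, 5.80, 3.20, 5.32 and 8.26 at DIV5 with GDNF, against 8.83, 7.63, 7.82, 6.41 and 7.06 at DIV5 without. At DIV1 it was 3.69, 4.71, 6.63, 13.0 and 6.0 with GDNF, against 3.07, 8.38, 12.8, 9.40 and 3.63 without. The GDNF libraries at DIV5 were below all DIV5 controls in 4 of 5 cases, replicate 5 being the exception. The log2 difference, GDNF minus control at DIV5, was −0.46 (SE 0.23, n = 5 each), with exact permutation p = 0.0635 and an adjusted p of 0.381 over the 12 tests. Without replicate 5 of DIV5 GDNF it was −0.61 with an exact unadjusted p = 0.0159. That was the lowest p of 13 alternative settings, which gave −0.61 to −0.28 with exact unadjusted p up to 0.179. They include the test paired by replicate number, which with 5 pairs cannot reach a p under 0.05. The other contrasts of this ratio were −0.07 (SE 0.48) for GDNF at DIV1, −0.13 (SE 0.36) for DIV5 minus DIV1 with GDNF and 0.27 (SE 0.39) without, with exact p of 0.476 to 0.889.

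The miR-222 arm ratio was lowest in DIV1 GDNF. Geometric means were 40.2 at DIV5 with GDNF, 43.3 at DIV5 without, 24.2 at DIV1 with GDNF and 40.7 at DIV1 without. With GDNF, DIV5 minus DIV1 was 0.73 on the log2 scale (SE 0.25, n = 5 each), with exact permutation p = 0.0238 but an adjusted p of 0.286 over the 12 tests, so it did not pass the correction. In that comparison 4 of the 5 DIV5 libraries, at 44.0 or above, exceeded 4 of the 5 DIV1 libraries, the exception being replicate 5 of DIV1 GDNF at 49.0. Without GDNF that difference was 0.09 (SE 0.43) with exact p = 0.841. GDNF minus control was −0.11 (SE 0.26) at DIV5 and −0.75 (SE 0.42) at DIV1, with exact p = 0.675 and 0.119. The DIV1 ratios with GDNF rest on 1 to 7 reads of miR-222-5p per library, 22 in all.

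No member passed the threshold for GDNF at DIV5, a comparison that asks how the factor acted on the cultures. In edgeR's quasi-likelihood test with Benjamini-Hochberg adjustment over all 542 miRNAs, 0.185% of them passed at DIV5, namely 1 miRNA (DESeq2 called 26, and 88 had an unadjusted edgeR p under 0.05). The log2 change of miR-222-3p was 0.06 (SE 0.16, 95% interval −0.26 to 0.39) and that of miR-221-3p was 0.14 (SE 0.20, −0.26 to 0.55), with adjusted p of 0.931 and 0.866. Their intervals leave room for changes up to 1.31-fold and 1.46-fold. miR-221-5p had a larger estimate of 0.62 (SE 0.33, −0.06 to 1.29), a fold change of 1.53, and was higher with GDNF in 5 of 5 replicate numbers. Its unadjusted p was 0.0724 and its edgeR adjusted p was 0.354, and 10.9% of tested miRNAs had a larger absolute change. In bulk libraries fewer cells of a type and less RNA per cell cannot be told apart.

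The DIV5 estimates differed between the sets of replicates. With replicates 1 and 2 alone the log2 change with GDNF was 0.36 for miR-221-3p, 0.17 for miR-222-3p and 0.90 for miR-221-5p. With replicates 3 to 5 alone it was 0.02, −0.04 and 0.52 in the same order, and none of these values passed edgeR's adjusted threshold. Mean miR-221-3p was 74.5 CPM with GDNF and 55.1 CPM without in replicates 1 and 2, and 90.4 CPM with GDNF and 89.6 CPM without in replicates 3 to 5. The gap between the sets was larger among the control libraries.

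**Figure D3:**
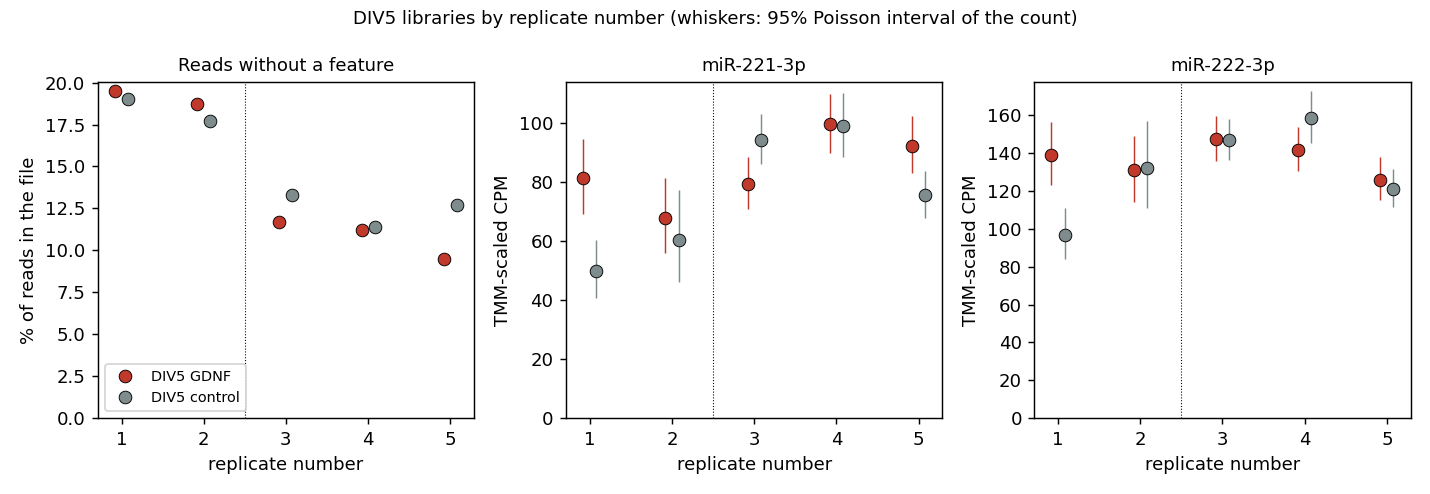
The DIV5 libraries are plotted by replicate number, GDNF left of control: the share of reads without a feature, miR-221-3p and miR-222-3p in TMM-scaled CPM with 95% Poisson intervals of the count. The dotted line separates replicates 1 and 2 from 3 to 5, and the miR-221-3p controls of replicates 1 and 2 (50.0 and 60.2 CPM) lie below the 3 others (75.5 to 99.0 CPM).

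At DIV1, GDNF left no member changed past the threshold either, where edgeR called 0% of miRNAs (0 of 542, with 7 at an unadjusted p under 0.05 and 0 called by DESeq2). miR-221-3p had a log2 change of 0.00059 (SE 0.20, 95% interval −0.42 to 0.42), miR-222-3p of −0.10 (SE 0.16, −0.43 to 0.24) and miR-221-5p of −0.0021 (SE 0.37, −0.77 to 0.77), each with an edgeR adjusted p of 1.00. The GDNF effects at DIV5 and DIV1 were then compared by an interaction term. It was 0.14 (SE 0.29) for miR-221-3p, 0.16 (SE 0.22) for miR-222-3p and 0.62 (SE 0.52) for miR-221-5p, with adjusted p of 0.951, 0.919 and 0.821. edgeR called 0% of the 542 miRNAs in this term, 50 having an unadjusted p under 0.05.

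Between DIV1 and DIV5, as the cultures matured, no member passed the threshold while most miRNAs did. With GDNF, 52.4% of the 542 tested miRNAs passed edgeR's adjusted threshold (25.1% higher and 27.3% lower at DIV5), and without GDNF 60.7% did (31.4% higher and 29.3% lower). miR-222-3p had a log2 change of 0.17 (SE 0.16, 95% interval −0.16 to 0.51) with GDNF and 0.01 (SE 0.16, −0.32 to 0.34) without, with adjusted p of 0.370 and 0.952. Of all tested miRNAs, 86.7% had a larger absolute change than miR-222-3p with GDNF and 98.9% without. Its interval without GDNF covers fold changes of 0.803 to 1.27. In no comparison by day or GDNF were the groups of a member free of overlap. Over the tested miRNAs, non-overlapping groups were seen at DIV5 against DIV1 for 18.6% higher and 18.3% lower with GDNF and 20.1% higher and 19.2% lower without. For GDNF against control they were seen for 0.923% higher at DIV5 and 0.185% higher at DIV1, with 0% lower at both.

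miR-221-3p came closest to a change with day. With GDNF its log2 change was 0.40 (SE 0.20, 95% interval −0.02 to 0.82), a fold of 1.32, with an unadjusted p of 0.0618 and an edgeR adjusted p of 0.103. Of the DIV5 GDNF libraries, 4 of 5 exceeded all DIV1 GDNF libraries, the ranges still overlapping. Without GDNF the log2 change was 0.26 (SE 0.20, −0.16 to 0.67) with an adjusted p of 0.283. These estimates depended on which DIV5 libraries were used. With DIV5 replicates 3 to 5 alone they were 0.53 with GDNF (edgeR adjusted p = 0.0244) and 0.49 without (0.0327), and with replicates 1 and 2 alone they were 0.22 (0.454) and −0.16 (0.588). A term for the sets gave 0.58 (0.0103) with GDNF and 0.41 (0.0520) without. That term put the DIV1 libraries with DIV5 replicates 3 to 5, although in reads without a feature DIV1 was like replicates 1 and 2. It therefore does not take the difference between the sets out of a day change. With replicates 3 to 5 alone, day and set cannot be told apart either. Over the 31 alternative settings the value with GDNF lay between 0.22 and 0.67 with an adjusted p of 0.0103 to 0.454, and 6 of them passed the threshold.

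miR-221-5p had a log2 difference by day of 0.55 (SE 0.36, 95% interval −0.21 to 1.31) with GDNF and −0.07 (SE 0.37, −0.83 to 0.70) without, and neither passed (edgeR adjusted p of 0.210 and 0.878). With DIV5 replicates 3 to 5 alone these were 0.74 and 0.16, and with replicates 1 and 2 alone 0.23 and −0.71, again without passing. For miR-222-5p, a fit without the filter on low counts gave −0.18 (SE 0.46) with GDNF and −0.03 (SE 0.48) without, and for GDNF against control 0.28 (SE 0.41) at DIV5 and 0.43 (SE 0.53) at DIV1. The adjusted p of these was 0.883 to 1.00, with 1 to 22 reads per library behind the values.

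**Figure D4:**
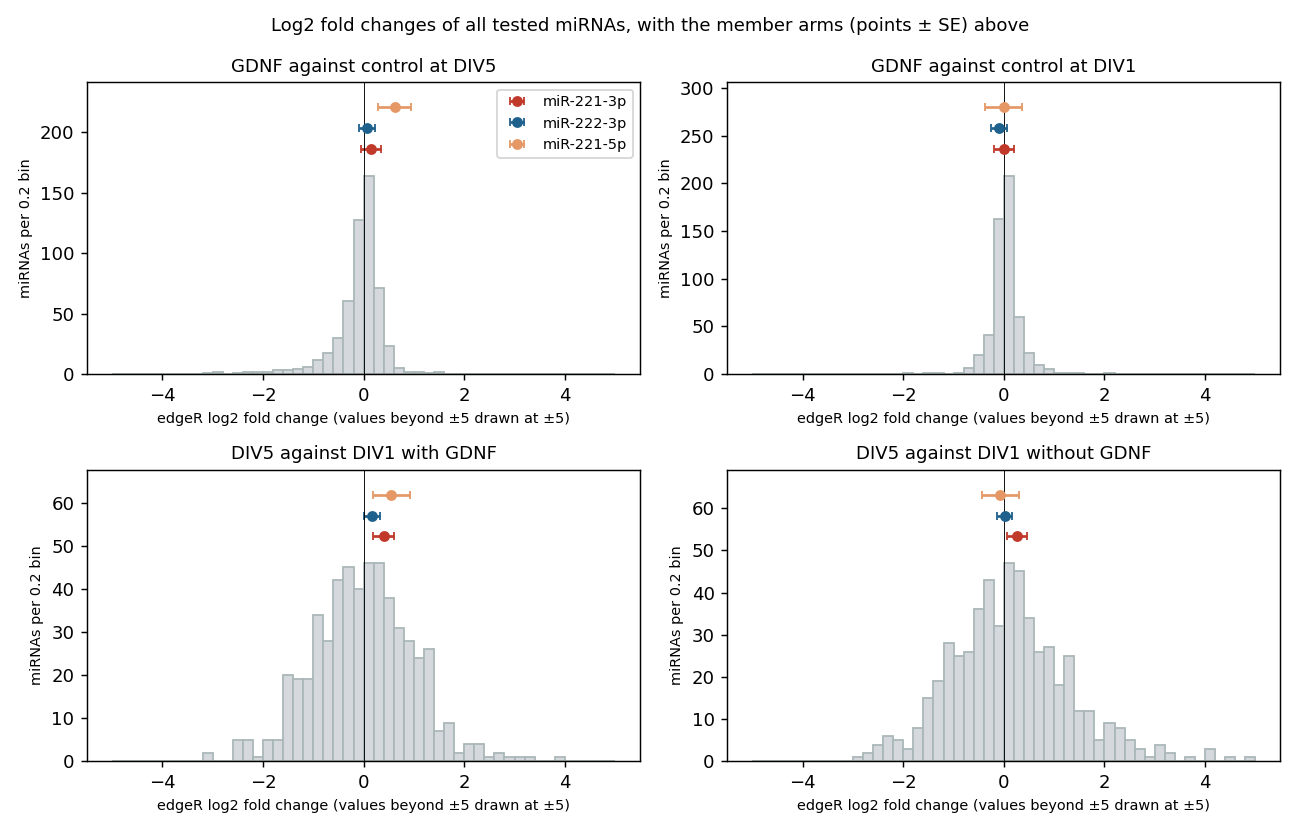
The 4 panels show the distribution of edgeR log2 fold changes of the 542 tested miRNAs, as counts per bin of 0.2, with miR-221-3p, miR-222-3p and miR-221-5p drawn above as points with their SE. The distributions by day are wide and those by GDNF narrow, and the 3p arms sit near the middle of each, between −0.10 and 0.40.

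Markers of other cell types moved between the days. Endothelial and smooth muscle cells are known for high miR-221 and miR-222. Of the 4 endothelial arms listed (miR-126a and miR-126b), miR-126a-5p and miR-126b-3p were at 0 in all libraries and only miR-126a-3p was tested. The list summed to 17.6 to 33.6 CPM at DIV5 with GDNF, 18.5 to 63.6 CPM at DIV5 without, 42.4 to 83.3 CPM at DIV1 with GDNF and 49.5 to 148.2 CPM at DIV1 without. The log2 change of miR-126a-3p by day was −1.22 (SE 0.35, edgeR adjusted p = 0.00576) with GDNF and −1.49 (SE 0.34, adjusted p = 0.000831) without. The smooth muscle and pericyte list (miR-143 and miR-145a) was called lower in 3 of 3 tested arms of 4 in both day comparisons. Of all 542 tested miRNAs, 27.3% were called lower with GDNF and 29.3% without. This list summed to 179.8 to 1769 CPM at DIV5 with GDNF, 409.2 to 1332 CPM at DIV5 without, 2702 to 3173 CPM at DIV1 with GDNF and 2729 to 3806 CPM at DIV1 without. No member of the pair passed the threshold in these comparisons. The part of such cells in the pair's levels was not tested.

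Other miRNAs linked to growth factor or activity signalling give a frame for the pair. The list held 29 arms, 20 of them tested. It was drawn up with earlier results of these data known, so a called miRNA within it is not independent evidence. With GDNF at DIV5 1 of the 20 rose, miR-182-5p of the miR-183 cluster, by 1.46 on the log2 scale (SE 0.28, edgeR adjusted p = 0.0193), which was the only miRNA called, and none fell. With GDNF at DIV1 none of the 20 changed. The list's median log2 change with GDNF was 0.01 at DIV5 and 0.13 at DIV1, beside −0.00063 and 0.03 over all tested miRNAs. Between the days, 7 rose and 5 fell with GDNF and 8 rose and 6 fell without, where 52.4% and 60.7% of all tested miRNAs passed, so these counts say little of the list itself. Those that rose include miR-132-3p and miR-212-3p, a pair induced by CREB in neurons, with log2 changes of 1.55 (SE 0.30) and 1.09 (SE 0.26) with GDNF and 2.34 (SE 0.31) and 1.25 (SE 0.26) without. Those that fell include miR-182-5p and miR-183-5p, by −1.59 (SE 0.28) and −1.44 (SE 0.31) with GDNF. Without GDNF these changes were −2.69 (SE 0.29) and −2.01 (SE 0.32). The growth factor-induced miR-21a-5p, at 2888 CPM, had −0.08 (SE 0.09) with GDNF and −0.18 (SE 0.09) without and did not pass.

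Each 3p arm was compared in pattern with 438 miRNAs of at least 10 CPM on average. The measure was the root-mean-square difference of centred log2 CPM over the 20 libraries, and the 5 nearest are named. For miR-221-3p these were miR-127-3p (0.249), miR-488-3p (0.255), miR-30a-5p (0.259), miR-134-5p (0.265) and miR-345-5p (0.272), against a median of 0.584 over all candidates. For miR-222-3p they were miR-1983 (0.175), miR-673-5p (0.215), miR-380-3p (0.231), miR-666-5p (0.233) and miR-30a-5p (0.25), against a median of 0.558. A miRNA of constant level would score 0.337 for miR-221-3p and 0.229 for miR-222-3p. For miR-222-3p, miR-380-3p, miR-666-5p and miR-30a-5p were no nearer than that, so a small value can reflect a steady level and not shared variation. The pair's own arms were less alike: at 0.355, miR-222-3p was 48th in the order of miR-221-3p, and miR-221-3p was 67th in the order of miR-222-3p. That value also exceeds the score of a constant miRNA for each arm. The counting SD of the pair's log2 ratio was 0.20. Counting adds less to the score of more abundant miRNAs, such as miR-127-3p at 32527 CPM.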

How the data were processed

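Small RNA reads were trimmed with cutadapt 1.8.1, aligned with STAR 2.4.1d to mm10 and counted with HTSeq, per the submitters' processing notes. The HTSeq version and the miRNA annotation are not given in the sources used here. Each library has 1 deposited file, in which the authors list unnormalized counts of reads for every mature miRNA. The only tally line above 0, reads without a feature, was left out of library sizes. No pair of libraries of a group agreed within sampling noise.

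Counts of all 20 libraries were fitted together in edgeR 4.0.16 (R 4.3.3) with TMM scaling, filterByExpr and 1 coefficient per group. Calls were made at a Benjamini-Hochberg adjusted p under 0.05 over the 542 miRNAs tested. DESeq2 1.42.0 was an alternative. Ratios of counts, with 0.5 read added, were compared by two-sided exact permutation tests. The edgeR test was checked on simulated counts. The permutation test was checked on simulated normal values only, not on ratios of low counts. CPM intervals are Poisson intervals at 95%. Sequences are from RefSeq on GRCm38.p6 and neighbouring genes from GENCODE vM21, which uses the same assembly as mm10.

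Replicate numbers paired the DIV5 libraries: the correlation of deviations between same-numbered GDNF and control libraries was at least 0.208. The split of DIV5 libraries by depth and unassigned reads was made after seeing the data.

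The members and lists were chosen with earlier results of these data known. Named miRNAs are the members, the 5 miRNAs with the pattern nearest to each 3p arm, any with a shared seed, and listed arms. The rule would also have named each list's called and most abundant arms. For lists other than those described, only counts are given. Arms called by day are given as higher and lower with GDNF, then without. Over all 542 tested miRNAs these shares were 25.1% and 27.3%, then 31.4% and 29.3%, so counts over few arms say little of a list. Dividing progenitor arms gave 0 and 19 of 19, then 0 and 17. Neuron arms gave 6 and 2 of 15, then 9 and 3. Astrocyte arms gave 1 and 1 of 4, then 1 and 2. Microglial arms gave 0 and 1 of 1 both times. Erythroid and oligodendrocyte arms each gave 1 and 2 of 3 both times, and mesenchymal arms 0 and 0 of 3 both times. In none of these other lists was an arm called for GDNF at either day, where 0.185% of all tested miRNAs were called at DIV5 and 0% at DIV1.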

Additional observations from a re-analysis of the deposited data

Results flagged for a closer look

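Of 28 sets of 5 values checked (4 arm levels and 3 ratios in 4 groups), 1 held a library far from the others. The miR-222-5p level in replicate 4 of DIV5 GDNF was 5.49 CPM, from 22 reads, while the other 4 DIV5 GDNF libraries had 2.48 to 3.01 CPM. About 1 in 20 such sets is expected to do so by chance.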

How the results depend on the processing

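The 32 results gave 754 values under alternatives, 724 of them the same by direction of call and threshold, and no called value changed sign. Estimates near 0 did change sign: miR-221-3p was above 0 in 5 of 28 alternatives for GDNF at DIV1, and in 30 of 31 by day without GDNF. miR-221-3p by day with GDNF passed with plain library totals (log2 0.55), no filter on low counts (0.67), only its own groups fitted (0.45), DIV5 control replicates 1 and 5 left out (0.44), DIV5 replicates 3 to 5 alone (0.53) and a term for the DIV5 sets (0.58). Without GDNF it passed with plain totals (0.52) and with replicates 3 to 5 (0.49). In the fits with replicates 3 to 5 alone or with the term, day and set cannot be told apart. Plain totals moved the median of all tested miRNAs to 0.15 with GDNF and 0.36 without. Leaving out 1 library in turn gave 0.36 to 0.51 with GDNF and 0.15 to 0.42 without.

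The count of miRNAs called for GDNF at DIV5, 1, became 26 with DESeq2, 13 with a 10 CPM filter, 0 with its own groups alone, 0 without control replicates 1 and 5, 2 in either set of replicates, 2 with the term for the sets, and 0 to 43 with 1 library left out. The replicate block, which pairs the DIV5 libraries, gave 3 calls, none a member, and changed no member's call. The interaction count, 0, became 1 with replicates 3 to 5 and 1 with the set term, and 0 to 1 with 1 library left out.

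Among ratios, miR-222-3p to miR-221-3p by day with GDNF ranged from −0.44 to −0.092 with 1 library left out, and miR-221-3p to miR-221-5p for GDNF at DIV5 from −0.61 to −0.28. The paired (replicate block) test of the miR-222 arm ratio by day with GDNF gave 0.73 with exact p = 0.0625, the smallest it allows, although the numbers were not taken to pair the days (lowest correlation −0.107). At DIV1 the same-numbered GDNF and control libraries correlated at 0.0062 to 0.474, and the same number was the best match for 3 of 5, so the numbers were not taken as pairs. The block gave 0 calls there, as did the fit without it. The causes of these shifts were not tested. The alternatives with the DIV5 sets and their term were chosen after seeing the data. Depth limits the 5p arms most: miR-222-5p entered a fit only when the filter on low counts was dropped.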
